A study of Mus musculus with 12 samples.

Results

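The genes described here are those of adipocytes and of lipid storage: adipogenic transcription factors, adipokines, and the genes of lipid uptake, synthesis, droplet coating and lipolysis. They were chosen as a list of 43 gene symbols, and all probes that carry one of these symbols were taken, detected or not. Of the 43 genes, 42 had a probe, 66 probes in all of the 45281 on each array. A test was possible for 33 genes (43 probes), out of 10211 genes tested on the whole array. Acsl1 was the gene without a probe here.

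The cells were OP9 cells, a stromal line from newborn calvaria of B6C3F1 op/op mice, which lack functional M-CSF because of the op mutation of Csf1. The groups were imatinib at 32 h, imatinib at 64 h, imatinib at 96 h and vehicle labelled 0 h, with 3 arrays each and 12 in all. Imatinib blocks the tyrosine kinases ABL and KIT and the receptors for PDGF; its dose is not given in the sources used here, and all 4 groups are the same line. Vehicle is labelled 0 h, but the wording of the design would also allow vehicle at the drug's own times, so drug and culture time cannot be told apart in a comparison with vehicle.

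White adipocytes arise from mesenchymal precursors when the transcription factors C/EBPβ and C/EBPδ induce PPARγ and C/EBPα, which then hold each other up and switch on the genes of the mature cell. Those genes let the cell take up fatty acids, join them to glycerol, keep the triglyceride in droplets coated by perilipins, release it by lipolysis, and secrete adipokines such as adiponectin. Bone marrow and calvarial stroma hold such precursors, and OP9 cells are known to form adipocytes under adipogenic culture conditions.

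Each array detected 16162 to 17332 probes at a median intensity of 103.7 to 111.7 (detection p under 0.05). Values below are normalized log2 intensities, on which arrays of 1 group correlated at r = 0.988 to 0.991. A gene with several probes is given by its tested probe with the highest mean, and levels are not compared between probes. Calls come from limma with adjusted p under 0.05 (Benjamini-Hochberg over all 18897 tested probes); "rose" and "fell" are used for such calls. The labels do not say whether the 3 arrays of a group came from separate cultures, so the p-values measure the spread between these samples, which may be technical. Vehicle and 96 h carry array label 1, and 32 h and 64 h array label 2. The arrays of imatinib 32 h replicate 3 and imatinib 64 h replicate 3 stood apart at opposite ends of principal component 3 (scores of -20.4 and 20.2, 7.07% of the variance). Results that changed without them are given with that value.

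Of the stromal markers looked at, 11 of the 14 with a probe were tested and all of these but Eng were detected on all 12 arrays, while Thy1 and Nt5e were each detected on 1 array and Lepr on 2. At 96 h against vehicle 3 of the 11 rose (Cxcl12 2.18 ± 0.11, Itgb1 0.94 ± 0.20, Alcam 0.68 ± 0.14 on the log2 scale, ± SE) and 3 fell (Cd44 -1.35 ± 0.11, Vim -0.87 ± 0.12, Eng -0.66 ± 0.19). Their summed linear intensity ran from 35500 to 36200 at 96 h and from 22000 to 23900 in vehicle. Bright genes weigh most in this sum, and Cxcl12 averaged 14.37 at 96 h and 12.19 in vehicle. Vim (12.17 and 13.03) and Cd44 (9.77 and 11.12) went the other way, so the sum does not show that the markers rose together. The part of these markers in the results below was not tested. Among the genes that define mature adipocytes, Adipoq and Pparg were detected on all 12 arrays and Cebpa on 11. Lep was detected on 9 arrays, Car3 on 8 and Lipe on 7. Plin1 and Fabp4 were each detected on 2 arrays, Cidec on 1 and Retn on none. The listed genes are therefore called adipocyte and lipid genes by name only, and the cultures are not called adipocytes.

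Imatinib at 96 h was compared with vehicle, both on array label 1, to see how these genes stood after the longest exposure. Of the 33 tested genes 13 rose and 2 fell. Among those that rose were 3 of 4 genes of secreted proteins, 3 of 3 other adipocyte enzymes and 3 of 3 genes of fatty acid uptake and carriage, and the other 4 were Ebf1, Dgat1, Plin2 and Pnpla2. Car3, Cd36 and Fabp5 were detected on no vehicle array and entered the test only through imatinib arrays. The counts of 3 of 3 rest in part on that filter. Adipoq rose most (log2 3.04 ± 0.11 SE, n = 3 per group), followed by Hp (2.42 ± 0.13), Aoc3 (2.40 ± 0.13), Cdo1 (2.20 ± 0.14) and Agt (2.05 ± 0.27). Pparg, the master regulator of the programme, was at 0.03 ± 0.16 and did not pass. Over all 10211 genes 7.51% rose and 7.37% fell, against 39.4% and 6.06% of the listed genes; 14.9% of all genes passed in either direction. The genes were chosen with earlier results of these data known, so these shares are not a test of the list. The median log2 change of the listed genes was 0.22, and that of all genes 0.002. The arrays read the RNA of whole cultures, so more cells that express a gene and more RNA per cell cannot be told apart.

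**Figure D1:**
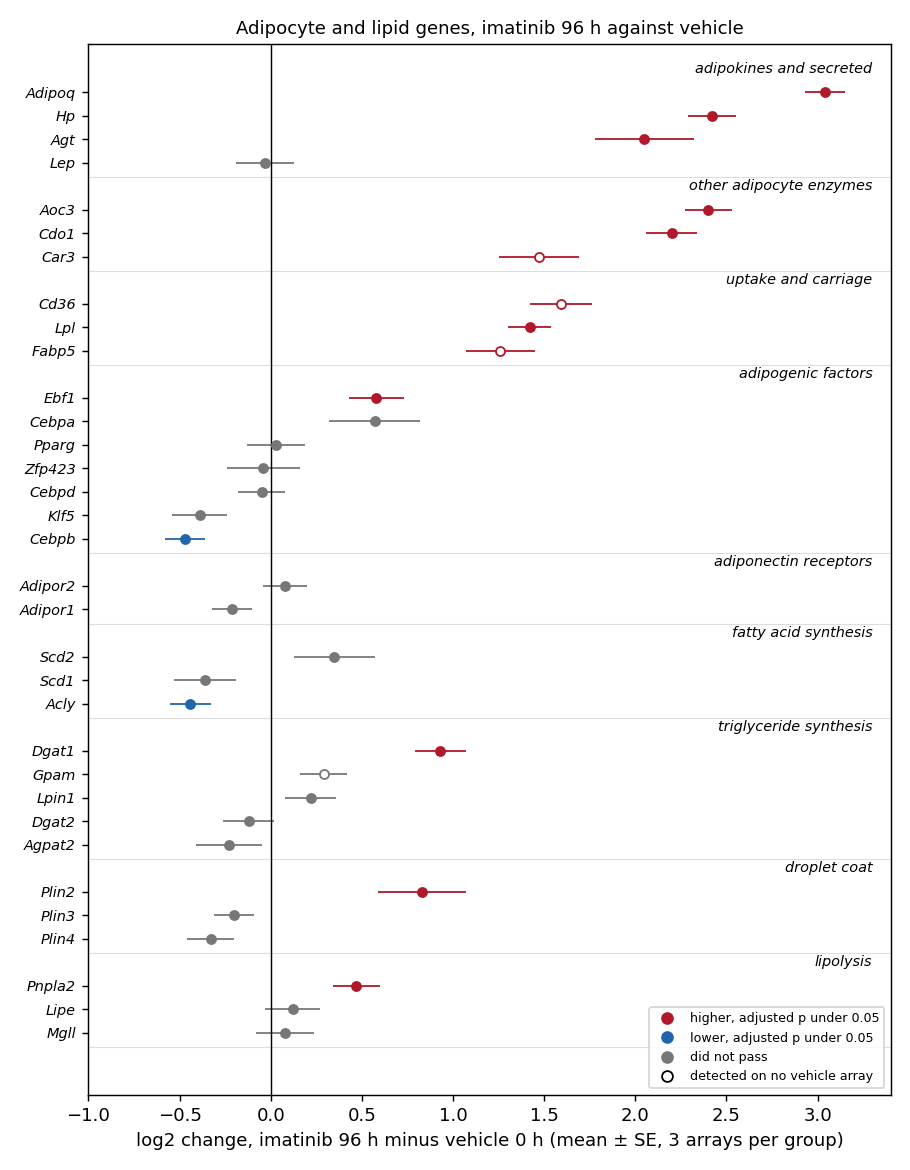
Log2 change at imatinib 96 h minus vehicle 0 h (x axis) for each of the 33 tested genes (y axis), grouped by role, as the mean difference ± SE of the fit with 3 arrays per group. Red genes rose, blue genes fell and grey genes did not pass; open points mark genes detected on no vehicle array. The secreted, enzyme and uptake genes other than Lep lie farthest to the right, up to 3.04 for Adipoq. Open points are fitted differences to a vehicle level that was not detected, so that the exact size is not known.

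Among the 5 adipokines and secreted proteins 4 were tested, and 3 of them rose at 96 h, where 7.51% of all genes rose. Adipoq encodes adiponectin, the most abundant adipokine, which acts on muscle and liver. It was at 7.84, 7.90 and 7.77 on the vehicle arrays, 9.61, 9.60 and 9.53 at 32 h, 10.73, 10.49 and 10.60 at 64 h and 10.87, 10.92 and 10.83 at 96 h. The 4 groups did not overlap. Adipoq was 8.23-fold higher at 96 h than in vehicle (adjusted p = 1.15e-10).

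Hp encodes haptoglobin, a haemoglobin-binding plasma protein that liver and adipocytes secrete. It was at 9.23, 9.54 and 9.24 in vehicle, 10.71, 10.56 and 10.60 at 32 h, 11.40, 11.31 and 11.36 at 64 h and 11.77, 11.59 and 11.92 at 96 h, again with no overlap between groups. Hp was 5.36-fold higher at 96 h than in vehicle (adjusted p = 5.13e-09). Its other probes gave 2.53 ± 0.18 and 2.37 ± 0.19, so that all 3 rose.

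Agt encodes angiotensinogen, the precursor of angiotensin, which is made by liver and by adipose tissue. It was at 5.46, 4.65 and 4.75 in vehicle, 5.83, 6.08 and 5.21 at 32 h, 6.72, 6.27 and 7.07 at 64 h and 7.03, 7.34 and 6.64 at 96 h. Only 1 of the 3 vehicle arrays detected it, and the 32 h values overlapped those of vehicle. The 96 h arrays were all higher than the vehicle arrays (4.14-fold, adjusted p = 7.55e-05).

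The adipokines leptin and resistin showed no rise, but both lay near or under the detection limit, where a rise could be missed. Lep was detected on 2 of 3 arrays at 96 h and on 3 of 3 in vehicle, and averaged 4.92 ± 0.21 at 96 h and 4.95 ± 0.17 in vehicle (SD, n = 3 each; change of -0.03 ± 0.16). Retn was detected on none of the 12 arrays (4.21 to 4.49) and was not tested. The adiponectin receptors Adipor1 (-0.21 ± 0.11) and Adipor2 (0.08 ± 0.12) did not pass, and the other 2 tested probes of Adipor2 gave 0.47 and -0.43.

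Promoters are shown because PPARγ and C/EBP factors are known to act on adipocyte genes through such regions. RefSeq sequences of GRCm38.p6 held a promoter for 28 of the 43 genes, including 6 of the 13 that rose at 96 h. Of these 6, the 3 with the largest fitted changes are printed (Adipoq, Agt and Cd36), and Ebf1, Plin2 and Pnpla2 are not. Each line gives the 250 bases before the start site, 5′ to 3′ along the gene, with motif matches in capitals. They lie at chr16:23146286-23146535 (plus strand) for Adipoq, chr8:124569707-124569956 (minus strand) for Agt and chr5:17835897-17836146 (minus strand) for Cd36.
Adipoq: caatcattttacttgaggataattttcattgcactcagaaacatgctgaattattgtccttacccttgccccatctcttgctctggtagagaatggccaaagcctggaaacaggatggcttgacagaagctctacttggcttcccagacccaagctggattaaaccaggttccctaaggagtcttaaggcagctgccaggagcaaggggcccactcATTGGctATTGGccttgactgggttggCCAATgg
Agt: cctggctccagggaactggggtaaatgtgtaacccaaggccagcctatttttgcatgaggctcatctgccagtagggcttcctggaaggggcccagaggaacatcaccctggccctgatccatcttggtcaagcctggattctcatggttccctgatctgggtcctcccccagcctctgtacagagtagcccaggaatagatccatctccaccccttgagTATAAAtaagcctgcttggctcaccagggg
Cd36: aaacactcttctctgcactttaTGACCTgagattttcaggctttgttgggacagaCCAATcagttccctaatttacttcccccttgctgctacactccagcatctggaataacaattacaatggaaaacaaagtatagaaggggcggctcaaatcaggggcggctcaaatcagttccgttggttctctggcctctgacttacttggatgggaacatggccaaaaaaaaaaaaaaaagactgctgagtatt
Searched on both strands were the PPAR-RXR element (AGGTCA repeated in the same direction after 1 base), AGGTCA alone (its half-site, which every full element also holds), TTGCNNAA (C/EBP), the EBF motif (TCCC, 2 bases, GGGA), CCAAT and TATAAA. The Adipoq window held 3 matches to CCAAT within 34 bases of the start site. Agt held TATAAA from 30 to 25 bases before it, and Cd36 held 1 half-site and 1 CCAAT. Of all 32851 promoter windows of this length, 33.8% held CCAAT, 14% the half-site, 12.4% TATAAA, 9.56% the C/EBP letters, 0.779% the EBF letters and 0.0335% the full PPAR-RXR element. Of the 28 listed genes with a window, 11 held CCAAT, 7 the half-site, 5 the C/EBP letters, 3 TATAAA, 1 the EBF letters and 0 the full element. A gene counted if any of its windows held the letters, and Pparg had as many as 3 windows. These counts of genes are therefore not on the scale of the shares of windows. A match describes these letters and shows no binding.

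The 3 enzymes that are abundant in adipocytes without a direct part in storage all rose at 96 h, where 7.51% of all genes rose. Car3, however, entered the test only through imatinib arrays. Aoc3 encodes a copper amine oxidase of the adipocyte surface. It was at 9.14, 9.32 and 9.19 in vehicle, 10.51, 10.81 and 10.86 at 32 h, 11.39, 11.38 and 11.41 at 64 h and 11.61, 11.77 and 11.48 at 96 h. All 4 groups were apart, and Aoc3 was 5.28-fold higher at 96 h than in vehicle (adjusted p = 5.78e-09). Its second probe was detected on 1 array and not tested.

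Cdo1 encodes cysteine dioxygenase, which breaks down cysteine. It was at 7.77, 7.72 and 7.52 in vehicle, 9.16, 9.24 and 8.99 at 32 h, 9.63, 9.58 and 9.27 at 64 h and 9.98, 9.93 and 9.70 at 96 h. Every imatinib array was above every vehicle array, and Cdo1 was 4.6-fold higher at 96 h (adjusted p = 2.96e-08).

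Car3 encodes carbonic anhydrase 3, a protein of muscle and fat. It was at 4.36, 4.63 and 4.80 in vehicle, where no array detected it, 5.49, 4.68 and 5.01 at 32 h, 5.95, 6.11 and 5.41 at 64 h and 6.23, 6.16 and 5.81 at 96 h. The 32 h values overlapped vehicle and the later ones did not. Car3 was at least 2.36-fold higher at 96 h than in vehicle (adjusted p = 0.000226). Here and below, "at least" sets the mean of the brighter group against the lowest level detected on each dim array. The array's own level was used if that lay above it. The lowest detected levels ran from 4.79 to 4.89. Such folds hold for the main background correction only and carry no error.

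All 3 tested genes of fatty acid uptake and carriage rose at 96 h, where 7.51% of all genes rose. Cd36 and Fabp5, however, entered the test only through imatinib arrays. Lpl encodes lipoprotein lipase, which frees fatty acids from circulating triglyceride. It was at 12.09, 11.88 and 12.05 in vehicle, 12.58, 12.89 and 12.77 at 32 h, 13.48, 13.28 and 13.49 at 64 h and 13.42, 13.46 and 13.40 at 96 h. The 64 h and 96 h arrays overlapped each other and lay above the rest, and Lpl was 2.68-fold higher at 96 h than in vehicle (adjusted p = 1.01e-06). Its second probe was detected on 1 array and not tested.

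Cd36 encodes a fatty acid translocase of the cell surface. It was at 4.39, 4.59 and 4.45 in vehicle, 5.07, 5.37 and 5.62 at 32 h, 6.0, 5.69 and 5.96 at 64 h and 5.94, 5.85 and 6.41 at 96 h. All 9 imatinib arrays and no vehicle array detected it. Cd36 was at least 2.37-fold higher at 96 h (adjusted p = 9.48e-06).

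Fabp5 and Fabp4 encode fatty acid-binding proteins of the cytosol, and Fabp4 is the one typical of adipocytes. Fabp5 was at 4.34, 4.61 and 4.51 in vehicle, 5.42, 5.10 and 5.15 at 32 h, 5.61, 5.18 and 5.78 at 64 h and 5.82, 5.35 and 6.07 at 96 h. It was detected on 9 of 9 imatinib arrays and 0 of 3 vehicle arrays, and the level was at least 1.9-fold higher at 96 h (adjusted p = 0.000259). The detection counts of Cd36 and Fabp5 add no support, as both entered the test only through imatinib arrays. The second Fabp5 probe was detected on no array. Fabp4 stayed at the limit, at 4.53, 4.48 and 4.31 in vehicle, 4.49, 4.59 and 4.40 at 32 h, 4.94, 4.40 and 5.32 at 64 h and 4.61, 4.27 and 4.39 at 96 h. It was detected on 2 of the 3 arrays at 64 h and on no other, and was not tested. Near the detection limit the size of a change depends on the background correction. With none, the 96 h changes were 0.55 for Cd36, 0.42 for Fabp5, 0.51 for Car3, 0.87 for Agt and 0.38 for Dgat1. All 5 calls held, but the changes of Cd36, Fabp5 and Car3 then lay below their "at least" folds.

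**Figure D2:**
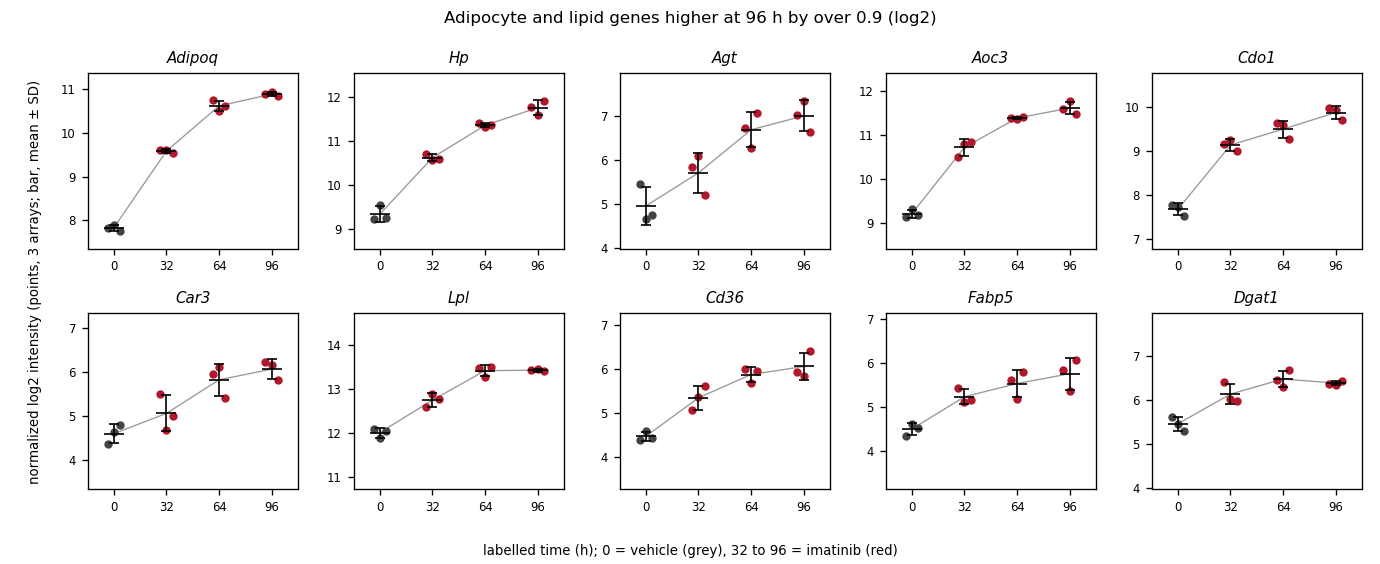
Normalized log2 intensity (y axis, 4 units high in every panel) against labelled time in hours (x axis, vehicle at 0 and imatinib at 32, 64 and 96) for 10 genes that were higher at 96 h by over 0.9. Points are the 3 arrays of a group and bars the mean ± SD. In all 10 genes every 96 h array lies above every vehicle array, which adds no support, as the genes were chosen by this change. Adipoq goes highest above its vehicle level.

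Of the 7 adipogenic transcription factors tested, 1 rose and 1 fell at 96 h, 14.3% each against 7.51% and 7.37% of all genes, with a median change of -0.04. The difference from the other classes was not tested. Pparg was at 10.83, 10.98 and 10.99 in vehicle, 11.12, 10.62 and 10.51 at 32 h, 10.93, 11.03 and 10.94 at 64 h and 11.05, 11.13 and 10.72 at 96 h. All 4 groups overlapped. Pparg averaged 10.97 ± 0.22 at 96 h and 10.94 ± 0.09 in vehicle (SD, n = 3 each; limma adjusted p = 0.938). A second probe gave -0.01 (8.89 at 96 h and 8.90 in vehicle), and the remaining one was detected on 2 arrays and not tested.

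Cebpa, the partner of PPARγ in terminal differentiation, was at 5.26, 5.47 and 4.66 in vehicle, 5.81, 5.26 and 5.72 at 32 h, 5.97, 4.86 and 5.38 at 64 h and 5.61, 5.80 and 5.67 at 96 h. The 96 h arrays lay above those of vehicle, of which 2 of 3 detected it, but the change of 0.57 ± 0.25 did not pass (adjusted p = 0.165). Cebpb, an early factor upstream of PPARγ, fell. It was at 9.99, 10.07 and 10 in vehicle, 9.74, 9.87 and 9.68 at 32 h, 9.66, 9.43 and 9.60 at 64 h and 9.63, 9.50 and 9.52 at 96 h. No imatinib array reached a vehicle array, and the change at 96 h was -0.47 ± 0.11 (adjusted p = 0.0113). Its companion Cebpd was at -0.05 ± 0.13.

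Ebf1, a factor that acts in B cell and adipocyte formation, rose at 96 h. It was at 7.50, 7.71 and 7.73 in vehicle, 7.77, 8.12 and 8.06 at 32 h, 8.02, 8.09 and 8.29 at 64 h and 8.08, 8.04 and 8.54 at 96 h. The groups at 96 h and in vehicle did not overlap, and Ebf1 rose by 0.58 ± 0.15 (adjusted p = 0.0195). A second probe rose by 0.72 ± 0.12, and the remaining one was detected on no array. The call of the first probe ended without vehicle replicate 1 (0.50, adjusted p = 0.0854) or 96 h replicate 3 (0.42, adjusted p = 0.0974).

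Klf5, a factor of early adipogenesis, was at -0.39 ± 0.15 (adjusted p = 0.109), and the preadipocyte factor Zfp423 at -0.04 ± 0.20 (5.06 at 96 h and 5.03 in vehicle on its second probe, which did not pass either). Klf15, which acts late, was detected on no array.

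**Figure D3:**
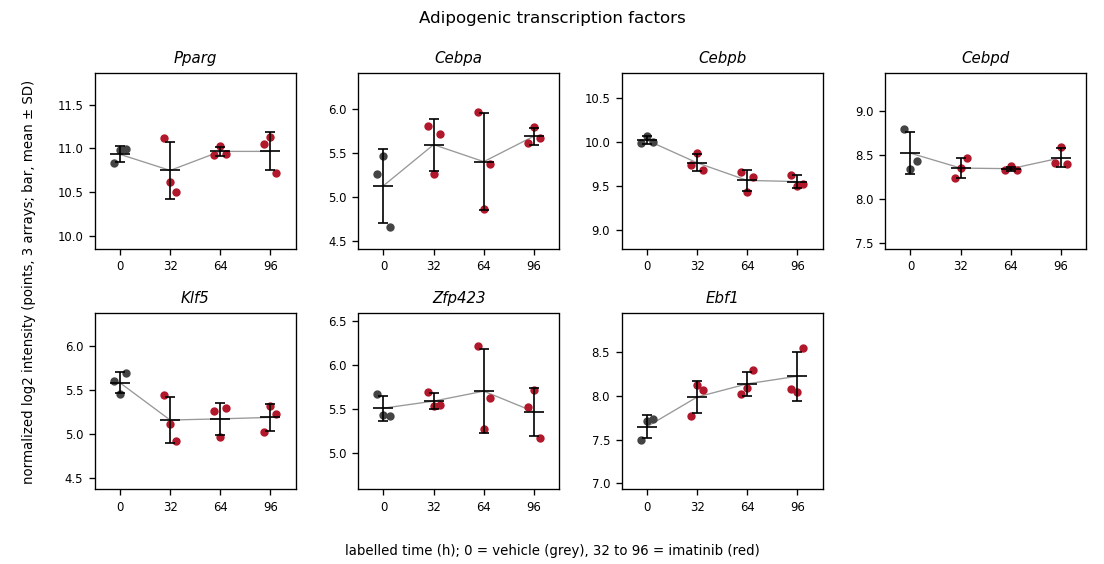
Normalized log2 intensity (y axis, 2 units high in every panel) against labelled time in hours (x axis, vehicle at 0 and imatinib at 32, 64 and 96) for the 7 tested adipogenic factors, with 3 arrays per group as points and mean ± SD as bars. Pparg groups overlap at 10.51 to 11.13, Cebpb lies lower on every imatinib array, and Ebf1 lies higher on each one.

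None of the fatty acid synthesis genes rose at 96 h. Acly, which makes cytosolic acetyl-CoA from citrate, was at 12.20, 12.21 and 12.11 in vehicle, 12.07, 12.05 and 12.07 at 32 h, 11.81, 11.66 and 11.70 at 64 h and 11.73, 11.69 and 11.78 at 96 h. The arrays at 64 h and 96 h were all lower than those of vehicle, and Acly fell by 0.44 ± 0.11 on the log2 scale at 96 h (change of -0.44, adjusted p = 0.0108). The stearoyl-CoA desaturase genes Scd1 (-0.36 ± 0.17) and Scd2 (0.35 ± 0.22) did not pass. Fasn (fatty acid synthase) was detected on 2 of the 12 arrays and Acaca (acetyl-CoA carboxylase) on none, and neither was tested.

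In triglyceride synthesis 1 of 5 tested genes rose at 96 h, where 7.51% of all genes rose. Dgat1, an acyltransferase of the final step, was at 5.61, 5.46 and 5.30 in vehicle, 6.40, 6.03 and 5.97 at 32 h, 6.45, 6.30 and 6.68 at 64 h and 6.36, 6.35 and 6.44 at 96 h. All imatinib arrays lay above vehicle, and Dgat1 was 1.9-fold higher at 96 h (adjusted p = 0.000373). Dgat2, an unrelated enzyme of the same step, was at -0.12 ± 0.14, with 96 h arrays at 6.68 to 6.99 and vehicle arrays at 6.90 to 7.19. The difference between Dgat1 and Dgat2 was not tested. The enzymes of the earlier steps did not pass: Gpam (0.29 ± 0.13, detected on 2 arrays at 96 h and none in vehicle), Agpat2 (-0.23 ± 0.18) and Lpin1 (0.22 ± 0.14). Second tested probes had the opposite sign for Agpat2 (0.51) and Lpin1 (-0.37). Gpd1, which makes glycerol phosphate, was detected on no array.

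Of the droplet coat genes Plin1, Plin2, Plin3, Plin4, Cidec and Cidea, 3 were tested and Plin2 rose at 96 h, where 7.51% of all genes rose. Plin2 coats small droplets in most cells. It was at 6.91, 6.55 and 6.87 in vehicle, 6.81, 7.12 and 6.84 at 32 h, 6.62, 7.07 and 6.99 at 64 h and 6.91, 7.70 and 8.20 at 96 h. Replicate 3 was highest at 96 h, and replicate 1 lay level with the highest vehicle array to 2 decimals. The change was 0.83 ± 0.24 (adjusted p = 0.0355). The call ended without any 1 of the vehicle replicates 1, 2 and 3 (adjusted p = 0.0604, 0.13 and 0.0656), without 96 h replicate 2 (0.104) or 96 h replicate 3 (log2 change 0.53, adjusted p = 0.158), and with only the 6 arrays compared (0.0726).

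Plin3 (-0.20 ± 0.11) and Plin4 (-0.33 ± 0.13) did not pass at 96 h (adjusted p = 0.259 and 0.11), though Plin4 fell with no background correction (-0.32, adjusted p = 0.0158), offset 50 (0.0344) and trended and robust variances (0.00986). Plin1, the perilipin of the large droplets of adipocytes, was at 4.31, 4.34 and 4.36 in vehicle, 4.45, 4.24 and 4.74 at 32 h, 4.60, 4.82 and 4.81 at 64 h and 5.28, 4.78 and 4.59 at 96 h on the probe with more detections. It was detected on 1 array at 64 h and 1 at 96 h. Cidec, which helps droplets to grow, was detected on 1 array, in vehicle, and Cidea on none.

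Among the lipases Pnpla2, which starts the breakdown of stored triglyceride, rose. It was at 9.68, 9.72 and 9.62 in vehicle, 10.14, 9.91 and 10.16 at 32 h, 10.14, 10.07 and 9.92 at 64 h and 10.22, 10.27 and 9.94 at 96 h. Every imatinib array was higher than vehicle, with a change of 0.47 ± 0.13 at 96 h (adjusted p = 0.0223). That call ended without vehicle replicate 1 or 3 (adjusted p = 0.0592 and 0.0749) and without 96 h replicate 1 or 2 (0.0756 and 0.0922). Lipe, the hormone-sensitive lipase gene (0.12 ± 0.15, detected on 2 arrays at 96 h and 1 in vehicle), and Mgll, which frees the last fatty acid (0.08 ± 0.16, detected on 1 array in each group), did not pass, nor did the second tested Mgll probe (0.39). The probes of Cebpd, Klf5, Gpam, Lpin1, Lipe and Mgll that are not described were each detected on 0 or 1 array and not tested.

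**Figure D4:**
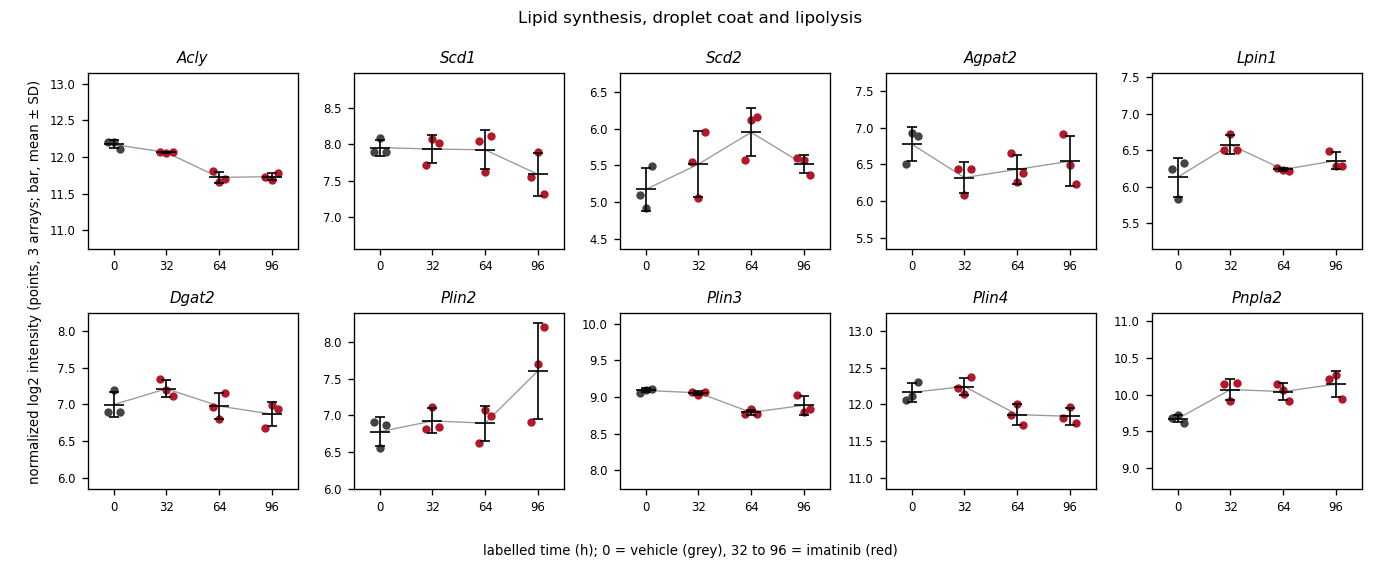
Normalized log2 intensity (y axis, 2.4 units high in every panel) against labelled time in hours (x axis, vehicle at 0 and imatinib at 32, 64 and 96) for 10 genes of lipid synthesis, droplet coat and lipolysis, with 3 arrays per group as points and mean ± SD as bars. Acly lies lower at 64 h and 96 h, Pnpla2 higher on all imatinib arrays, and the Plin2 arrays at 96 h spread from 6.91 to 8.20.

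Imatinib at 64 h was compared with 32 h for changes later in the exposure; both groups carry array label 2. Of the 33 genes 4 rose and 0 fell, where 0.656% of all genes rose and 0.578% fell (1.23% either way); 2 listed genes fell with no background correction and 2 with trended and robust variances. The 4 were Adipoq (1.03 ± 0.11, adjusted p = 0.000243), Hp (0.74 ± 0.13, adjusted p = 0.00905), Lpl (0.67 ± 0.12, adjusted p = 0.0126) and Aoc3 (0.67 ± 0.13, adjusted p = 0.0174). In each of them the 64 h arrays all lay above the 32 h arrays, which adds no support, as the 4 were picked by this change. The macrophage marker Lyz2 (1.04 ± 0.15, adjusted p = 0.00245) and the stromal marker Cxcl12 (0.86 ± 0.11, adjusted p = 0.00136) rose in the same comparison. Lyz2 was the only 1 of 4 tested macrophage markers to pass, with Csf1r at -0.30, Adgre1 at -0.29 and Cd14 at -0.15. Cxcl12 was the only 1 of 11 tested stromal markers to pass (median change of the 11, -0.07). The part of Lyz2 and Cxcl12 in the result was not tested. The median change of the listed genes was 0.11, and that of all genes 0.001.

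Without the pair of arrays that stood apart Adipoq alone kept its call, and Hp (0.72, adjusted p = 0.116), Aoc3 (0.73, adjusted p = 0.10) and Lpl (0.65, adjusted p = 0.135) did not pass. The Aoc3 and Lpl calls also ended with only these 6 arrays in the fit (adjusted p = 0.0785 and 0.0691). The count fell to 2 without 32 h replicate 1, 64 h replicate 1 or 64 h replicate 3, as Aoc3 (adjusted p = 0.0939, 0.06 and 0.0677) and Lpl (0.0745, 0.0599 and 0.0642) did not pass. Without 64 h replicate 2 Aoc3 did not pass (0.0646). Agt (0.98, adjusted p = 0.12) and Car3 (0.76, adjusted p = 0.14) moved by as much with more spread and did not pass, but Agt passed with no background correction, offset 50 or trended and robust variances (adjusted p = 0.0129 to 0.039), and Car3 with the last of these (0.0498). Of the other 2 Hp probes, 1 rose (0.83 ± 0.18) and 1 did not pass (0.52 ± 0.19).

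Imatinib at 32 h and at 64 h were each compared with vehicle for the order in which the genes changed. These comparisons run across the 2 array labels, so array label, drug and time cannot be told apart in them, and they share the vehicle arrays with each other and with the 96 h comparison. At 32 h 8 of the 33 genes rose and 0 fell, where 2.09% of all genes rose and 2.08% fell (4.16% either way). They were Adipoq (1.74 ± 0.11), Aoc3 (1.51 ± 0.13), Cdo1 (1.46 ± 0.14), Hp (1.29 ± 0.13), Lpl (0.74 ± 0.12), Dgat1 (0.68 ± 0.14), Cd36 (at least 1.44-fold) and Fabp5 (at least 1.32-fold). The largest adjusted p of the 8 was 0.0419, for Fabp5.

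Fabp5 lost this call without any 1 of the 6 arrays compared (adjusted p = 0.0733 to 0.146). Dgat1 lost it without vehicle replicate 2 or 3 (adjusted p = 0.0531 and 0.0754) or 32 h replicate 1 (0.0691), and Cd36 without the pair of arrays that stood apart (0.0554). The median change of the listed genes at 32 h was 0.27, and that of all genes 0.002. Agt (0.75, adjusted p = 0.158) did not pass at 32 h, except with trended and robust variances (adjusted p = 0.0443). Car3 was detected on 2 of 3 arrays at 32 h and 0 of 3 in vehicle and did not pass (adjusted p = 0.304). Pnpla2 did not pass at 32 h (0.40, adjusted p = 0.115) or 64 h (0.37, adjusted p = 0.0777). It passed at 32 h with no background correction, offset 50 or trended and robust variances (adjusted p = 0.0145 to 0.0289), and at 64 h with these, the stricter filter or averaged probes (0.011 to 0.0479).

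At 64 h 11 of the 33 genes rose and 2 fell, where 6.33% of all genes rose and 6.08% fell (12.4% either way), with a median of 0.10 against 0.002 for all genes. Adipoq (2.77 ± 0.11), Aoc3 (2.18 ± 0.13), Hp (2.02 ± 0.13), Cdo1 (1.83 ± 0.14), Agt (1.73 ± 0.27), Lpl (1.41 ± 0.12), Dgat1 (1.02 ± 0.14), Cd36 (at least 2.09-fold), Car3 (at least 2.0-fold) and Fabp5 (at least 1.62-fold) rose. The last of the 11 was Scd2, which was at 5.10, 4.92 and 5.49 in vehicle, 5.54, 5.06 and 5.95 at 32 h, 5.57, 6.12 and 6.16 at 64 h and 5.60, 5.57 and 5.37 at 96 h. Its 64 h arrays lay above vehicle and its 96 h arrays overlapped vehicle.

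Scd2 rose by 0.78 ± 0.22 at 64 h (adjusted p = 0.0298), but not without vehicle replicate 1 or 2 (adjusted p = 0.0888 and 0.121) or 64 h replicate 2 or 3 (0.103 and 0.109). Cebpb (-0.46 ± 0.11) and Acly (-0.45 ± 0.11) fell at 64 h, and Cebpb lost this call without vehicle replicate 2 (-0.43, adjusted p = 0.061) or 64 h replicate 2 (-0.39, adjusted p = 0.0708). The second Ebf1 probe rose at 64 h (0.59 ± 0.12, adjusted p = 0.00332), while the first gave 0.49 (adjusted p = 0.0512). Ebf1 passed at 64 h with no background correction, median scaling, offset 50 or the stricter filter (adjusted p = 0.0137 to 0.0455). It also passed with only the 6 arrays compared (0.0461), trended and robust variances (0.0108), the replicate block (0.0286) or averaged probes (0.00263).

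Among the 9 genes that rose at 96 h and were detected on every vehicle array, the 32 h change was 18.2 to 84.3% of the 96 h change on the log2 scale. It was 57.4% for Adipoq, 53.2% for Hp, 62.8% for Aoc3, 66.3% for Cdo1 and 52.1% for Lpl. By 64 h these 5 had 82.9 to 99.5% of it. Plin2 had 18.2% at 32 h and 14.1% at 64 h, the lowest of the 9 at each time. These shares use the same vehicle arrays throughout, run across array labels and are given without a test.

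Related genes that are not on the list were described by lists of adipogenic regulators, secreted proteins and lipid enzymes. Over all 10 such lists, 112 genes were tested at 96 h against vehicle, of which 17.9% rose and 8.93% fell, against 7.51% and 7.37% of all genes. The lists were chosen with earlier results of these data known, so the shares here and below are not a test of them. Of 15 other adipogenic regulators 3 rose and 1 (Klf4) fell, with a median of 0.07: Bmp4, a ligand that commits precursors to the adipocyte lineage (1.59 ± 0.12), the nuclear receptor co-repressor gene Nrip1 (1.00 ± 0.27) and the Ebf1 relative Ebf3 (0.85 ± 0.11). Of 16 genes listed as inhibitors of adipogenesis 4 rose and 4 fell, with a median of -0.24. Dlk1, the preadipocyte marker Pref-1 that holds precursors back, fell (-0.83 ± 0.11). The Notch target Hes1 (0.95 ± 0.22, detected on 2 of 3 vehicle arrays) and Sfrp1 (1.04 ± 0.14) rose; Sfrp1 binds Wnt proteins and so can also favour adipogenesis, against the name of its list.

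Of 6 other secreted proteins of adipocytes, Rbp4, the plasma carrier of retinol (2.50 ± 0.18), and Nampt, an enzyme of NAD synthesis also called visfatin (1.46 ± 0.13), rose and 0 fell, with a median of 0.12. Of 14 genes of fatty acid uptake and activation 2 rose and 2 fell (median 0.02), among them the acyl-CoA synthetase genes Acsl3 (0.71 ± 0.12) and Acsl4 (0.67 ± 0.12) and the lipoprotein receptor gene Lrp1 (-0.50 ± 0.12). Of 13 chain-lengthening and desaturating enzymes Fads3 rose (0.61 ± 0.15) and 0 fell (median -0.01). Of 12 genes of glycerolipid assembly Fitm2, which helps droplets to form, rose (0.57 ± 0.13) and Mogat2 fell (-0.87 ± 0.17, detected on 1 array at 96 h), with a median of 0.16. Of 12 genes listed as partners of droplets and lipolysis 4 rose and 0 fell (median 0.08). The largest rise was that of Ppp1r3c (1.84 ± 0.12), a glycogen-targeting subunit gene that lies outside the name of its list. The others were Abhd5, the activator of the Pnpla2 lipase (0.93 ± 0.15), G0s2, its inhibitor (0.57 ± 0.15), and the lysosomal lipase gene Lipa.

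At 32 h against vehicle 9 of the 112 rose and 1 fell (8.04% and 0.893%, against 2.09% and 2.08% of all genes). At 64 h against vehicle 16 rose and 7 fell (14.3% and 6.25%, against 6.33% and 6.08% of all genes). At 64 h against 32 h 3 rose and 0 fell (2.68% and 0%, against 0.656% and 0.578% of all genes). Bmp4 (0.55 ± 0.12), Nampt (0.71 ± 0.13) and Ppp1r3c (1.14 ± 0.12) were among those higher at 32 h, and Rbp4 (1.04 ± 0.18) and Ppp1r3c (0.55 ± 0.12) among those higher at 64 h than at 32 h.

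Cd36, Lpl, Fabp5 and Plin2 are also expressed by macrophages, and Hp and Agt by liver. Of 11 macrophage markers with a probe 4 were tested, and at 96 h Lyz2 rose (1.93 ± 0.15, and 1.47 ± 0.15 at 64 h against vehicle), Cd14 fell (-0.96 ± 0.21), and Csf1r (-0.26 ± 0.20) and Adgre1 (0.24 ± 0.16) did not pass. Their summed linear intensity ran from 296 to 346 at 96 h and from 165 to 211 in vehicle. Lyz2 was the brightest of the 4 at 96 h (7.88, and 5.94 in vehicle), while Cd14 averaged 5.14 at 96 h and 6.10 in vehicle. The sum therefore does not show that the macrophage markers rose together. Itgam, Ptprc, Marco, Msr1 and Fcgr1 were detected on no array, Cd163 on 1, Mrc1 on 2 and Adgre1 on 3. Of 5 hepatocyte markers Alb, Ttr and Serpina1a were detected on no array, Apoa1 on 1 and Trf on 2. Of 10 endothelial markers 2 were tested and neither passed (46.0 to 68.9 at 96 h and 51.6 to 57.7 in vehicle, summed), and Tek, Tie1, Emcn, Vwf, Esam and Cldn5 were detected on no array. Of 5 epithelial markers 2 were tested and neither passed (70.2 to 75.4 at 96 h and 57.0 to 63.5 in vehicle). The part of Lyz2-expressing cells in these changes was not tested.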

How the data were processed

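OP9 cells were profiled on 12 Illumina BeadChip arrays, 3 each for imatinib at 32 h, 64 h and 96 h and vehicle at 0 h. The authors deposited a non-normalized table that, per the file headers, holds for every array a signal intensity, with background still in it, and a detection p-value. They also deposited intensity values normalized between arrays; the submitters' processing notes name limma, without version or settings. Log2 of these deposited values lay within 0.0193 of those computed here.

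The first table was corrected and quantile-normalized with neqc (offset 16) in R 4.3.3 with limma 3.58.1. Figures used Python 3.11.15 with matplotlib 3.10.9 and pandas 2.3.3. A single gene symbol is given for 34885 of the 45281 probes, several for 18 and none for 10378. Probes with detection p under 0.05 on at least 3 arrays were tested (18897), with 1 linear model of 4 group means (8 residual degrees of freedom) and adjusted p under 0.05. The fit was tested on simulated data. Values on every array are given for each gene called in at least 1 comparison and for Pparg, Cebpa, Fabp4, Plin1 and Plin2; of each related list, up to 3 called genes with the largest change at 96 h are named with values, and the naming of Klf4 and Lipa and all 32 h and 64 h values of related genes were chosen after their values were seen.

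The genes and lists were chosen with earlier results of these data known. Samples with the same replicate number did not deviate together (r = -0.022 to 0.026), so the numbers were not used as a block. Alternatives were no background correction, median scaling, offset 50, no filter, a stricter one (all 3 arrays of any group under detection p 0.01), the deposited normalized values, only the 6 arrays compared, trended and robust variances, the replicate block, averaging all probes of a gene, and leaving out each array in turn. Leaving out the pair of arrays that stood apart was chosen after seeing the data. Precision is limited by the number of arrays, with a median SE of 0.147 for a log2 change. Probes were named through the platform annotation, and promoter sequences came from RefSeq (GRCm38.p6).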

Additional observations from a re-analysis of the deposited data

How the results depend on the processing

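The 40 calls of listed genes in the 4 comparisons were recomputed 680 times in all: 632 kept the call, 0 reversed, and 29 of the 40 calls held under all alternatives tried. The calls that were lost are given beside their values, except that with no filter Plin2 at 96 h (adjusted p = 0.102), Fabp5 at 32 h (0.0938) and Scd2 at 64 h (0.0787) did not pass, and Fabp5 at 32 h did not pass with no background correction (0.0797) or offset 50 (0.0777). Without the pair of arrays that stood apart Plin2 at 96 h (0.0531), Fabp5 at 32 h (0.0821) and Scd2 at 64 h (0.0694) did not pass. From 32 h to 64 h the count that rose (4) became 2 with only the 6 arrays compared, 1 without the pair of arrays that stood apart, and 2 to 4 with each array left out; fewer arrays entered those fits. The count that fell (0) became 2 with no background correction (Plin4 and Acly), 1 with offset 50 (Acly) and 2 with trended and robust variances (Plin4 and Acly). At 64 h against vehicle the count that fell (2) became 4 with no background correction (Plin3 and Plin4 added) and 1 to 2 with each array left out. Plin3 also fell there with offset 50 (adjusted p = 0.0376), no filter (0.0405) or averaged probes (0.0405), and Plin4 with trended and robust variances (0.0207). The cause was not tested. The counts at 96 h stayed at 12 to 13 higher and 2 to 3 lower, and at 10 to 12 and 2 with each array left out.

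With the replicate block 13 genes rose and 2 fell at 96 h, 4 and 0 from 32 h to 64 h, 8 and 0 at 32 h and 12 and 2 at 64 h against vehicle; the first Ebf1 probe at 64 h (0.49, adjusted p = 0.0286) was the call it added. Over all genes, the 126 calls from 32 h to 64 h became 309 with no background correction, 264 with offset 50, 307 with trended and robust variances, 193 with the stricter filter, 70 with only 6 arrays, 29 without the pair and 70 to 83 with each array left out. The 425 calls at 32 h became 723, 666 and 668 under the first 3 of these, 254 without the pair and 247 to 284 with each array left out. Genes near the detection limit (Cd36, Car3, Fabp5, Agt) had smaller log2 changes with no background correction, for example 0.55 for Cd36 and 0.87 for Agt at 96 h, and these calls held. The 9 genes with a probe that were not tested had no probe detected on more than 2 arrays, and the reason was not tested.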

Other observations

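At 96 h against vehicle, where 7.51% of all genes rose and 7.37% fell, 2 of 15 tested genes of mitochondrial fatty acid oxidation and its control rose and 1 fell, with a median log2 change of 0.05. They were Pdk4, a kinase that turns glucose oxidation down (0.59 ± 0.13 SE, adjusted p = 0.00777), Echs1, a hydratase of the oxidation spiral (0.52 ± 0.15, adjusted p = 0.0327), and Etfa, which passes its electrons on (-0.39 ± 0.11, adjusted p = 0.0342). Of 6 tested insulin response genes Pik3r1, the regulatory subunit gene of phosphoinositide 3-kinase, rose (1.03 ± 0.12) and 0 fell. Of 9 brown and beige adipocyte markers 6 were detected on no array, 3 were tested, and Cox7a1, a muscle and brown fat subunit of cytochrome oxidase, fell (-0.78 ± 0.14, detected on 2 arrays at 96 h and 3 in vehicle).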
